A study of Mus musculus with 3 samples.

Results

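The transcripts described here are those of 6 genes: the 4 mouse receptors for the Fc part of immunoglobulin G (Fcgr1, Fcgr2b, Fcgr3 and Fcgr4), the signalling chain Fcer1g, and the neonatal Fc receptor Fcgrt. They were taken by name, as 6 of the 32886 gene columns of the deposited count table. The table holds 20266 immune cells from kidneys of wild type, untouched mice, which were male and of the C57BL/6J strain. From each kidney the cortex, the zone below it (outer medulla, OM) and the innermost part (inner medulla, IM) were separated. Their cells were sequenced singly on droplets in 3 datasets (Aachen, Bonn and Hamburg), which gave 9 libraries of 621 to 3677 cells. A library here means all cells of a compartment in a dataset, as marked in the deposited file. The authors had sorted the cells into 23 named clusters. All groups shared genotype and treatment, so that the compartments were compared in healthy tissue only, and nothing in the labels says how many animals stood behind a library.

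Receptors for the Fc part of IgG let myeloid cells bind antibody-coated particles and immune complexes. FcγRI (Fcgr1), FcγRIII (Fcgr3) and FcγRIV (Fcgr4) are activating: they pair with the FcRγ chain (Fcer1g), whose immunoreceptor tyrosine-based activation motif (ITAM) is phosphorylated by Src family kinases and recruits Syk. FcγRIIB (Fcgr2b) is the inhibitory receptor, acts through the lipid phosphatase SHIP1 and is known as the Fcγ receptor of B cells. FcRn (Fcgrt) pairs with B2m in endosomes and returns IgG and albumin to the surface. In the kidney, macrophages and dendritic cells are known to meet filtered or deposited immune complexes, and Fcγ receptors are best known there from antibody-mediated glomerular disease.

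In the mouse genome (GRCm38), 4 of the 6 genes lie within 275.749 kb of chromosome 1. Fcgr2b occupies positions 170958617 to 170976547 on the minus strand, Fcgr4 positions 171018920 to 171029761 on the plus strand, Fcgr3 positions 171051174 to 171064935 on the minus strand and Fcer1g positions 171229572 to 171234365 on the minus strand. The gaps between these neighbours were 42.373 kb, 21.413 kb and 164.637 kb. Fcgr1 lies apart, on chromosome 3 (96282909 to 96293969, minus strand), and Fcgrt on chromosome 7 (45092990 to 45103851, minus strand). All 6 are protein-coding genes. Fcgr2b and Fcgr3 have closely related coding sequences, and how reads common to them were assigned was not tested.

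The promoters of Fcgr1 and Fcgr4 are shown because these genes had their highest level in the same cluster, the interferon-responsive macrophages, and because the comparisons between compartments turn on them. Each line gives the 150 bases before the RefSeq gene start (GRCm38.p6), 5′ to 3′ on the gene's own strand, chr3:96293970-96294119 (minus) for Fcgr1 and chr1:171018776-171018925 (plus) for Fcgr4. Capitals mark matches to 3 motifs searched on both strands.
Fcgr1: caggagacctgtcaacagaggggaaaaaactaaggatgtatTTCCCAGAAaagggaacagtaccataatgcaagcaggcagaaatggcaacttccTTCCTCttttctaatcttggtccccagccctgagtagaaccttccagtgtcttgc
Fcgr4: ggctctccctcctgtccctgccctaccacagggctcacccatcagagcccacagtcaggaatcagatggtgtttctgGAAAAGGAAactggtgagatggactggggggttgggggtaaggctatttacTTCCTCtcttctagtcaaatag
The letters TTCNNNGAA, the core of the interferon-γ-activated site, were found in Fcgr1 from 109 to 101 bases before the start. The letters GAAANNGAA, which resemble part of the interferon-stimulated response element, were found in Fcgr4 from 73 to 65 bases before the start. GAGGAA, a purine-rich motif of the ETS family to which the myeloid factor PU.1 belongs, was found in Fcgr1 (55 to 50), Fcgr4 (22 to 17) and Fcgr3 (6 to 1). None of these letters occurred in the 250 bases before Fcgr2b, Fcer1g or Fcgrt. Over windows of 250 bases before 32851 RefSeq gene starts, TTCNNNGAA was present in 7.02%, GAGGAA in 23.3% and GAAANNGAA in 7.13%. The motifs did not overlap each other, and a match describes the sequence only.

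Library totals ran from 2122809 to 15267126 UMIs (unique molecular identifiers, each standing for a captured transcript), and the median cell held 887 UMIs (Aachen), 3290.5 UMIs (Bonn) or 2943.9 UMIs (Hamburg). Levels are therefore given as CPM, the UMIs of a gene per 1000000 UMIs of a cluster in a dataset, with mean ± SD over datasets (n = 3 unless stated), and only within a gene, since the 3′ counts of different genes are not on a common scale. The Hamburg values were deposited as estimated, mostly fractional counts. In total 801 UMIs of Fcgr1 were counted in the Aachen dataset, 2109 in the Bonn and 848 in the Hamburg dataset, against 18321, 48005 and 29209 of Fcer1g. Among the 36 pairs of libraries, at most 0.723% of the cell barcodes of the smaller library recurred in the other. Barcodes within a library ended in up to 2 different suffixes, so whether each library was prepared as a single one is not known. The marker genes of each cell type gave the highest summed level in the clusters of that name, except in 3 of them: NK_cell_2 (cDC2 list 2339 CPM, NK list 2156 CPM), Malat+_T_cell (macrophage list 5495 CPM, T cell list 2198 CPM) and Monocyte (macrophage list 6180 CPM, monocyte list 5941 CPM). Macrophage transcripts were therefore present in the cluster labelled Monocyte at a level like that of its own markers.

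The resident macrophages, that is Macrophage_1, Macrophage_2, Macrophage_3 and Isg+_Macrophage as a class (5367 cells), held most of the transcripts of all 6 genes, although they made up 26.2% of the cells on average. Their share of all UMIs of a gene was 79.1% ± 7.86 for Fcgr4, 76.6% ± 9.44 for Fcgr1, 75.2% ± 10.3 for Fcgr3, 64.8% ± 12.3 for Fcgr2b, 63.8% ± 11.1 for Fcgrt and 59.9% ± 15.5 for Fcer1g. Outside the macrophages, the largest shares of the Fcgr2b UMIs lay in cDC2 (8.18% ± 4.47) and B cells (7.85% ± 3.61), those of the Fcer1g UMIs in monocytes (11.3% ± 7.65) and NK cells (9.71% ± 5.58), and that of the Fcgrt UMIs in cDC2 (9.30% ± 4.26). The clusters had been made from the expression of the same cells, so levels across clusters are a description and were not tested. In what follows, a difference between clusters is called larger than its spread where it had the same sign in 3 of 3 datasets and its mean exceeded its SD, on the log2(CPM + 10) scale. Of 22 pairs of neighbours in the order of levels, 4 met this for Fcgr3 and 3 for each of the other 5 genes.

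**Figure D1:**
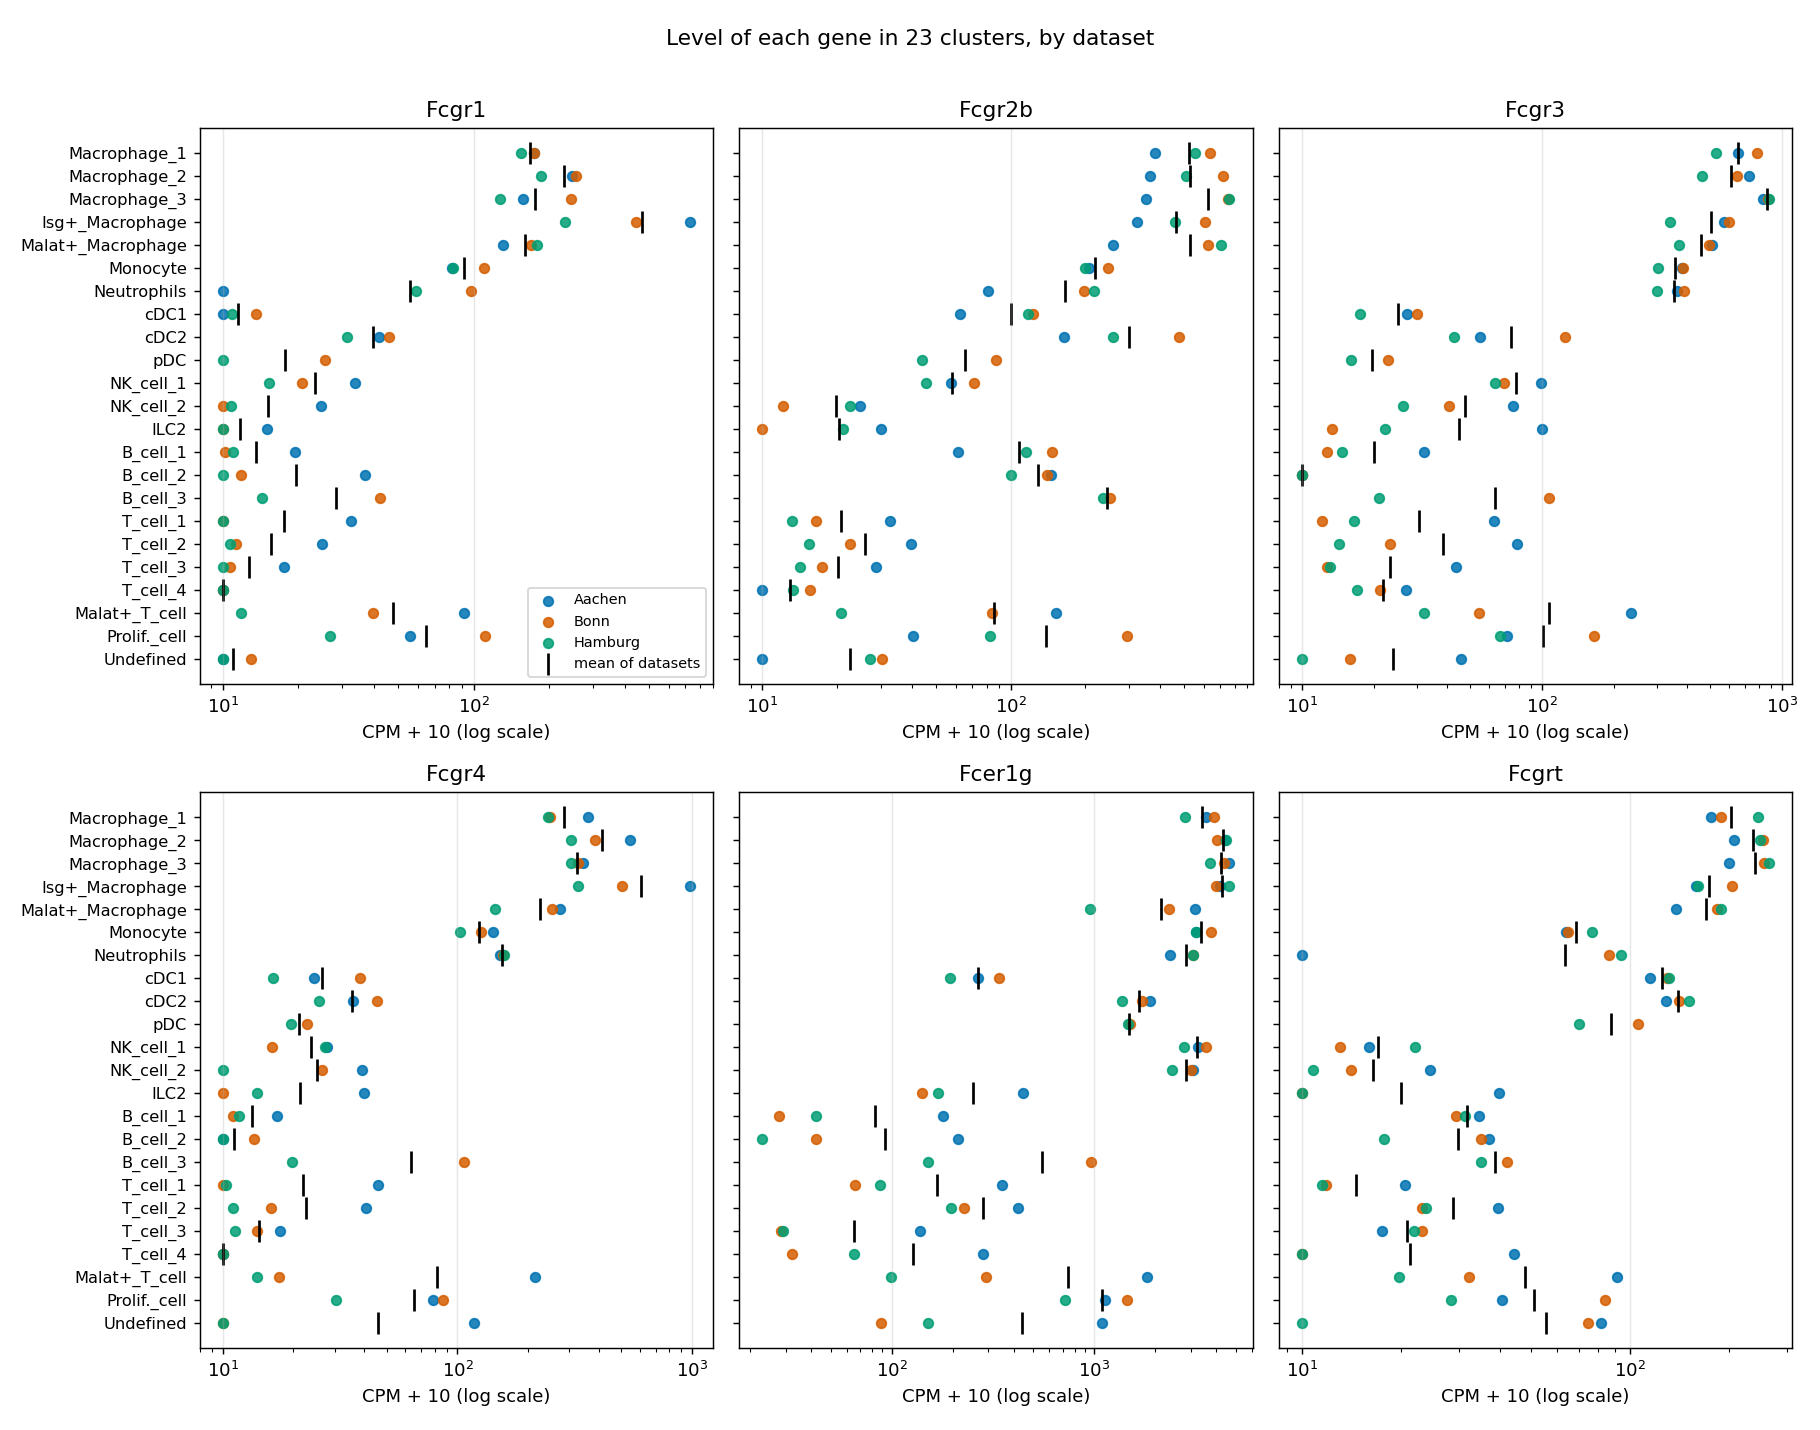
Level of each of the 6 genes in the 23 clusters, as CPM + 10 on a log axis, with a coloured point for each of the 3 datasets and a black bar for their mean. The 4 resident macrophage clusters lie at the high end for every gene, Fcer1g is also high in NK_cell_1 (3195 CPM), and Fcgr2b lies higher in B_cell_1 (97.9 CPM) than in T_cell_1 (10.8 CPM).

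Fcgr1, the high-affinity IgG receptor, was highest in Isg+_Macrophage, a cluster of 273 cells named for interferon-stimulated genes. Its level there was 719 CPM in the Aachen, 434 CPM in the Bonn and 222 CPM in the Hamburg dataset (458 ± 249). Macrophage_2 followed with 237, 245 and 175 CPM (219 ± 38.3), so the level in the interferon-responsive cluster was the higher in all 3 datasets, by 0.90 ± 0.62 (SD) on the log2 scale. This lead was wide in the Aachen dataset and narrow in the Hamburg dataset. Macrophage_3 (166 ± 60.8 CPM), Macrophage_1 (158 ± 11.9 CPM) and Malat+_Macrophage (150 ± 25.8 CPM) followed and could not be ordered among themselves. Monocytes held 81.5 ± 15.9 CPM, 2.74 times the level of the type 2 conventional dendritic cells, cDC2 (29.7 ± 7.68 CPM), a difference that was larger than its spread.

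Fcgr4, the activating receptor for IgG2a and IgG2b, was ordered in nearly the same way. Isg+_Macrophage held 969 CPM in the Aachen, 493 CPM in the Bonn and 318 CPM in the Hamburg dataset (593 ± 337), against 536, 377 and 295 CPM in Macrophage_2 (403 ± 123). The difference of 0.44 ± 0.37 on the log2 scale was positive in 3 of 3 datasets. Macrophage_3 (314 ± 18.9 CPM) and Macrophage_1 (275 ± 66.5 CPM) came next. Neutrophils, which are known to carry FcγRIV, held 145 ± 2.87 CPM and monocytes 114 ± 19.7 CPM. Neutrophils were the higher in each dataset, but the Aachen value rests on 2 UMIs in 25 cells and the order turned when cells were reduced to 500 UMIs (neutrophils 86.6 CPM, monocytes 153 CPM). Monocytes in turn held 4.44 times the level of cDC2 (25.6 ± 9.88 CPM).

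Fcgr3, the low-affinity activating receptor, had another order, with Macrophage_3 at the top. Its level was 819 CPM in the Aachen, 865 CPM in the Bonn and 872 CPM in the Hamburg dataset (852 ± 28.9), which is the smallest relative spread of Fcgr3 in any macrophage cluster. Macrophage_1 held 646 ± 130 CPM, lower by 0.41 ± 0.30 on the log2 scale. Isg+_Macrophage, the leading cluster for Fcgr1 and Fcgr4, held 495 ± 142 CPM of Fcgr3, below Macrophage_2 (603 ± 134 CPM) in all 3 datasets. Monocytes (346 ± 46.4 CPM) and neutrophils (343 ± 45.5 CPM) could not be ordered. Among lymphoid cells, FcγRIII is known from NK cells: NK_cell_1 held 89.2, 59.7 and 53.7 CPM in the Aachen, Bonn and Hamburg datasets (67.6 ± 19.0), above T_cell_1 with 53.1, 2.16 and 6.53 CPM in each dataset. Monocytes held 5.13 times the level of NK_cell_1.

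Fcgr2b, the inhibitory receptor, was also found in dendritic cells and B cells. Macrophage_3 (612 ± 235 CPM), Macrophage_2 (521 ± 178 CPM), Malat+_Macrophage (520 ± 238 CPM) and Macrophage_1 (515 ± 131 CPM) were not separable in this order, and Isg+_Macrophage (454 ± 143 CPM) lay slightly below Macrophage_1 in each dataset. The cDC2 followed with 154 CPM in the Aachen, 467 CPM in the Bonn and 249 CPM in the Hamburg dataset (290 ± 160). That was 3.19 times the level of the type 1 conventional dendritic cells, cDC1 (90.8 ± 33.5 CPM), and not beyond the spread from monocytes (208 ± 25.5 CPM). In cDC2 the inhibitory receptor thus reached the level of monocytes, while monocytes held 2.74 times the Fcgr1, 5.41 times the Fcgr3 and 4.44 times the Fcgr4 of cDC2. B cells carried Fcgr2b as well: B_cell_1 held 51.6, 137 and 106 CPM against 22.6, 6.49 and 3.21 CPM in T_cell_1 of the same datasets, a difference of 2.40 ± 1.28 on the log2 scale. For Fcgr3 the same clusters did not differ beyond their spread.

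Fcer1g, the shared signalling chain, was high in myeloid and NK cells alike. Macrophage_2 (4304 ± 225 CPM), Isg+_Macrophage (4250 ± 335 CPM) and Macrophage_3 (4234 ± 476 CPM) could not be told apart, and Macrophage_1 (3411 ± 551 CPM) lay below Macrophage_3 in 3 of 3 datasets by 0.32 ± 0.13 on the log2 scale. NK_cell_1 held 3253, 3570 and 2762 CPM (3195 ± 407) in the Aachen, Bonn and Hamburg datasets, against 341, 56.2 and 77.6 CPM in T_cell_1, so that the lead was narrowest in Aachen. FcRγ also serves receptors of NK cells that do not bind IgG. In the dendritic cells Fcer1g divided the subsets: cDC2 held 1648 ± 256 CPM and cDC1 256 ± 71.4 CPM, a ratio of 6.43. In Malat+_Macrophage the level differed strongly between datasets, from 939 CPM in Hamburg to 3133 CPM in Aachen.

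Fcgrt, the receptor that recycles IgG, separated dendritic cells from monocytes. After the macrophages (Macrophage_3 230 ± 35.5 CPM, Macrophage_2 227 ± 25.7 CPM, Macrophage_1 194 ± 36.8 CPM) came cDC2 with 119, 131 and 141 CPM and cDC1 with a mean of 115 ± 9.14 CPM. Monocytes held 53.9, 54.6 and 66.7 CPM. The cDC2 level was thus 2.23 times and the cDC1 level 1.97 times that of monocytes, and both differences were larger than their spread. This order is the reverse of that of Fcgr1, Fcgr3 and Fcgr4, all of which were lower in cDC1 and cDC2 than in monocytes on average. B_cell_1 held 21.9 ± 2.54 CPM and T_cell_1 4.64 CPM.

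To set levels beside the background of free RNA, every cell was reduced at random to 500 UMIs, which left out 814 shallower cells, of which 810 came from the Aachen dataset. In resident macrophages 82.6% ± 4.39 of the cells then held at least 1 UMI of Fcer1g (98.0% without this reduction), 27.3% ± 4.60 of Fcgr3 (70.7%), 22.3% ± 6.41 of Fcgr2b (65.1%), 15.4% ± 3.11 of Fcgr4 (50.4%), 9.67% ± 2.53 of Fcgr1 (39.6%) and 9.50% ± 0.862 of Fcgrt (43.0%). In T cells, which should lack the Fcγ receptors, the shares at 500 UMIs were 0.181% for Fcgr1, 0.471% for Fcgr2b, 0.612% for Fcgr3 and 0.321% for Fcgr4. The median depth before the reduction was 1574 UMIs in resident macrophages and 2779 UMIs in T cells. The Fcgr2b share of B cells was 4.78% ± 2.38 (20.03% unreduced), above that of T cells, and the Fcgr3 share of NK cells was 2.44% ± 0.592 (10.2% unreduced). Fcer1g was found in 76.6% of NK cells and in 2.51% ± 1.88 of B cells. The Fcgr1 share of cDC2, 1.05% ± 0.927, was low and variable at this depth. Shares near those of T cells, such as Fcgr1 in NK cells (0.186%), were read as background.

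The balance of activating and inhibitory receptors was taken as the share of Fcgr1, Fcgr3 and Fcgr4 UMIs among those of the 4 Fcγ receptors. Because genes are captured unequally, only its differences between cells or compartments are meaningful. It ran from 70.7 to 74.4% over the datasets in monocytes (mean 72.1%), and its mean was between 67.7% ± 7.07 and 75.2% ± 11.3 in the 4 resident macrophage clusters and 62.0% ± 14.8 in Malat+_Macrophage. In cDC2 it was 30.1% ± 9.16, in cDC1 27.2% ± 13.6 and in B_cell_1 17.4% ± 22.1. The highest dataset value in cDC2 (40%) lay below the lowest in any of the resident macrophage clusters (62.2%). The Aachen dataset gave the highest value in each macrophage cluster.

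Within the resident macrophages, the log2 ratio of activating to inhibitory UMIs did not differ detectably between compartments. It was 1.68 in the Aachen, 0.90 in the Bonn and 0.94 in the Hamburg cortex. The OM libraries gave 1.96, 0.79 and 0.75, the IM libraries 2.08, 0.93 and 0.71. The ratio rose into the medulla in the Aachen dataset by 0.34, and was lower there by 0.04 in Bonn and 0.21 in Hamburg, so that the datasets went in opposite directions. The mean difference, medulla minus cortex, was 0.03 (two-sided exact permutation test within datasets, p = 0.741, 27 arrangements, smallest possible p = 0.037). In resident macrophages reduced to 500 UMIs, 15.0 to 32.7% of the cells of a library held Fcgr2b and 31.3 to 51.2% held an activating receptor. Both kinds were found together in 7.34 to 15.5%, close to the product of the separate shares, which ran from 6.28 to 16.8%. The joint share lay slightly above the product except in the Aachen cortex (7.85 against 8.36%) and the Bonn OM (15.5 against 16.8%). At this depth, activating and inhibitory transcripts were thus found in the same macrophages about as often as separate detection of each would give, or slightly more often.

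**Figure D2:**
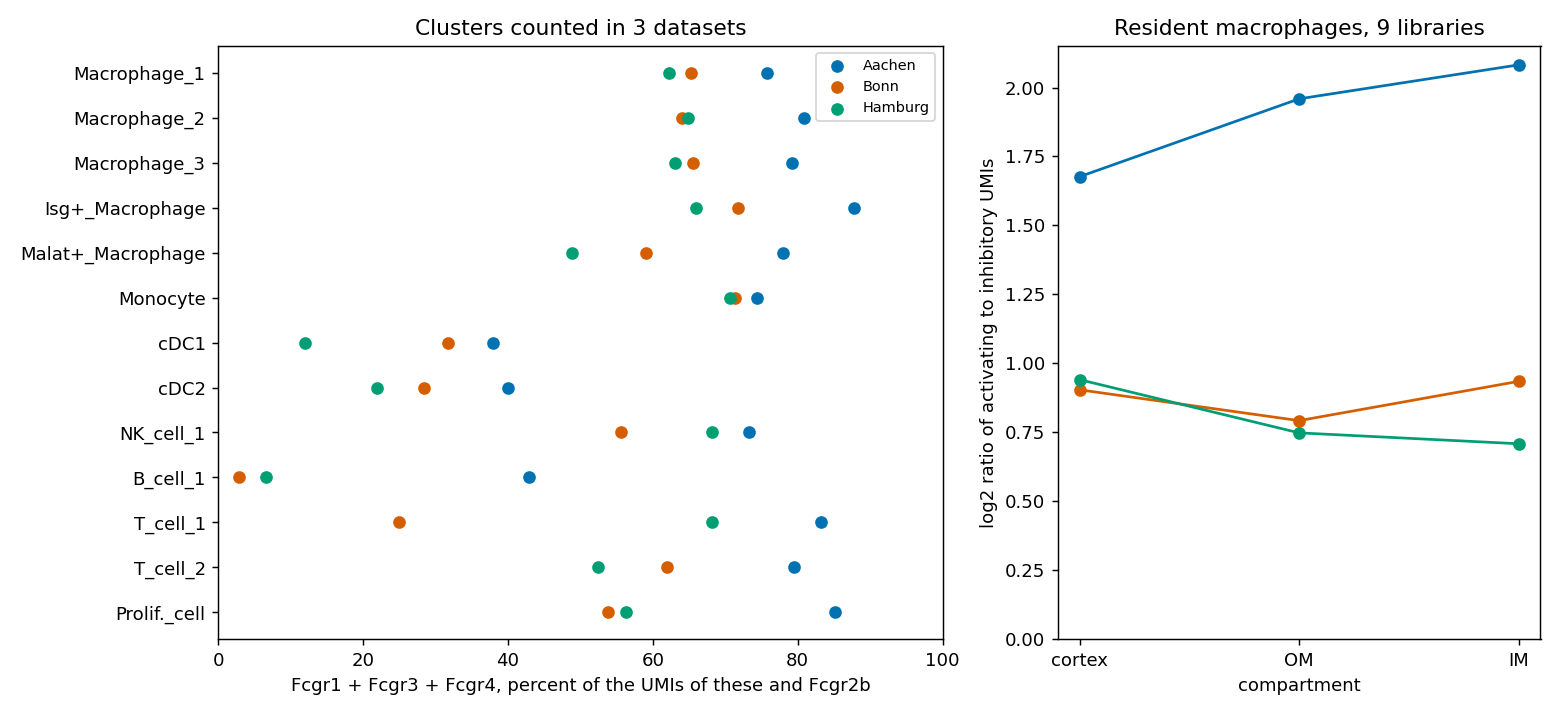
Left, the share of Fcgr1, Fcgr3 and Fcgr4 among the UMIs of the 4 Fcγ receptors in percent, for clusters counted in 3 datasets (coloured points). Right, the log2 ratio of activating to inhibitory UMIs in resident macrophages by compartment, with a line for each dataset: macrophages and monocytes lie well to the right of cDC2 (30.1%) and cDC1 (27.2%), and the Aachen line rises from 1.68 in the cortex to 2.08 in the IM while the Hamburg line falls from 0.94 to 0.71.

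The question whether Fc receptor transcripts differ with position in the kidney was asked by summing UMIs per library and cell class and comparing medulla (mean of OM and IM) with cortex within datasets, by edgeR's quasi-likelihood test with Benjamini-Hochberg adjustment over all genes tested. In resident macrophages 108 of 8687 genes (1.24%) passed an adjusted p of 0.05, and none of the 6 Fc receptor genes was among them. None of the 6 passed in OM against cortex (0.852% of genes called), in IM against cortex (0.196%), or in OM against IM (0.0%). In that last comparison no gene passed at all with edgeR or DESeq2, while 267 with edgeR and 61 with DESeq2 had an unadjusted p under 0.05. Over all 11 classes that could be fitted, in which 58 tests of a member were made for medulla against cortex, a single one passed, Fcgr1 in cDC2. The share of all tested genes called in this comparison ran from 0.02% in Macrophage_2 to 1.24% in resident macrophages, and was 0.304% in cDC2.

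Fcgr3 was the member with the most uniform direction in resident macrophages. Its level was 647, 642 and 462 CPM in the Aachen, Bonn and Hamburg cortex, 735, 730 and 605 CPM in the OM and 700, 806 and 473 CPM in the IM. Both medullary libraries lay above the cortex in each of the 3 datasets, but the groups overlapped, since the Hamburg OM and IM were below the cortex values of the other datasets. The log2 fold change, medulla over cortex, was 0.22 ± 0.13 (SE, edgeR adjusted p = 0.622). Macrophage_3 was the cluster richest in Fcgr3. Of the cortical resident macrophages 2.35% ± 4.07 belonged to it, against 36.9% ± 12.1 of those of the OM and 19.9% ± 21.3 of those of the IM, and its part in this difference was not tested. Within single clusters the Fcgr3 estimate was 0.65 ± 0.24 in Isg+_Macrophage (edgeR adjusted p = 0.619, 0.107% of genes called) and 0.63 ± 0.25 in Malat+_Macrophage (adjusted p = 0.830). The larger clusters moved less. Macrophage_1 held 598 ± 89.5 CPM in the cortex, 650 ± 87.3 CPM in the OM and 647 ± 164 CPM in the IM. In Macrophage_2 the levels were 620 ± 148, 634 ± 120 and 558 ± 178 CPM, and the medulla was lower in 2 of 3 datasets.

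For the other activating receptors the estimates pointed the other way. Fcgr4 was found at 487, 388 and 292 CPM in the cortex, 371, 393 and 256 CPM in the OM and 509, 261 and 251 CPM in the IM of the Aachen, Bonn and Hamburg datasets. Its medullary mean was below the cortex in each dataset, with a log2 fold change of -0.20 ± 0.14 (edgeR adjusted p = 0.703). Fcgr1 was found at 256, 271 and 149 CPM in the cortex, 177, 263 and 150 CPM in the OM and 217, 184 and 172 CPM in the IM, and its fold change was -0.19 ± 0.14 (adjusted p = 0.730). The Hamburg dataset did not share the lower values of Fcgr1. In Macrophage_1, where 0.516% of genes were called, the estimates were -0.44 ± 0.18 for Fcgr1 (adjusted p = 0.557) and -0.40 ± 0.16 for Fcgr4 (adjusted p = 0.508), and in Malat+_Macrophage (0.0587% called) Fcgr4 had -0.70 ± 0.23 (adjusted p = 0.768). None of these passed the test, and none of the 6 genes did in Macrophage_2 (0.02% called).

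Fcgr2b, Fcer1g and Fcgrt showed no common direction in resident macrophages. Fcgr2b was measured at 434, 695 and 470 CPM in the cortex, 330, 800 and 602 CPM in the OM and 336, 654 and 548 CPM in the IM. The Aachen dataset was lower in the medulla and the Hamburg dataset higher, and the log2 fold change was -0.01 ± 0.13 (edgeR adjusted p = 1.0). Fcer1g lay between 3281 and 4440 CPM in all 9 libraries (0.11 ± 0.11, adjusted p = 0.853), and Fcgrt between 168 and 259 CPM (-0.05 ± 0.13, adjusted p = 0.970). The narrow ranges of Fcer1g and Fcgrt over these libraries contrast with their wide range over cell types. Fcgr2b varied more, from 330 to 800 CPM.

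**Figure D3:**
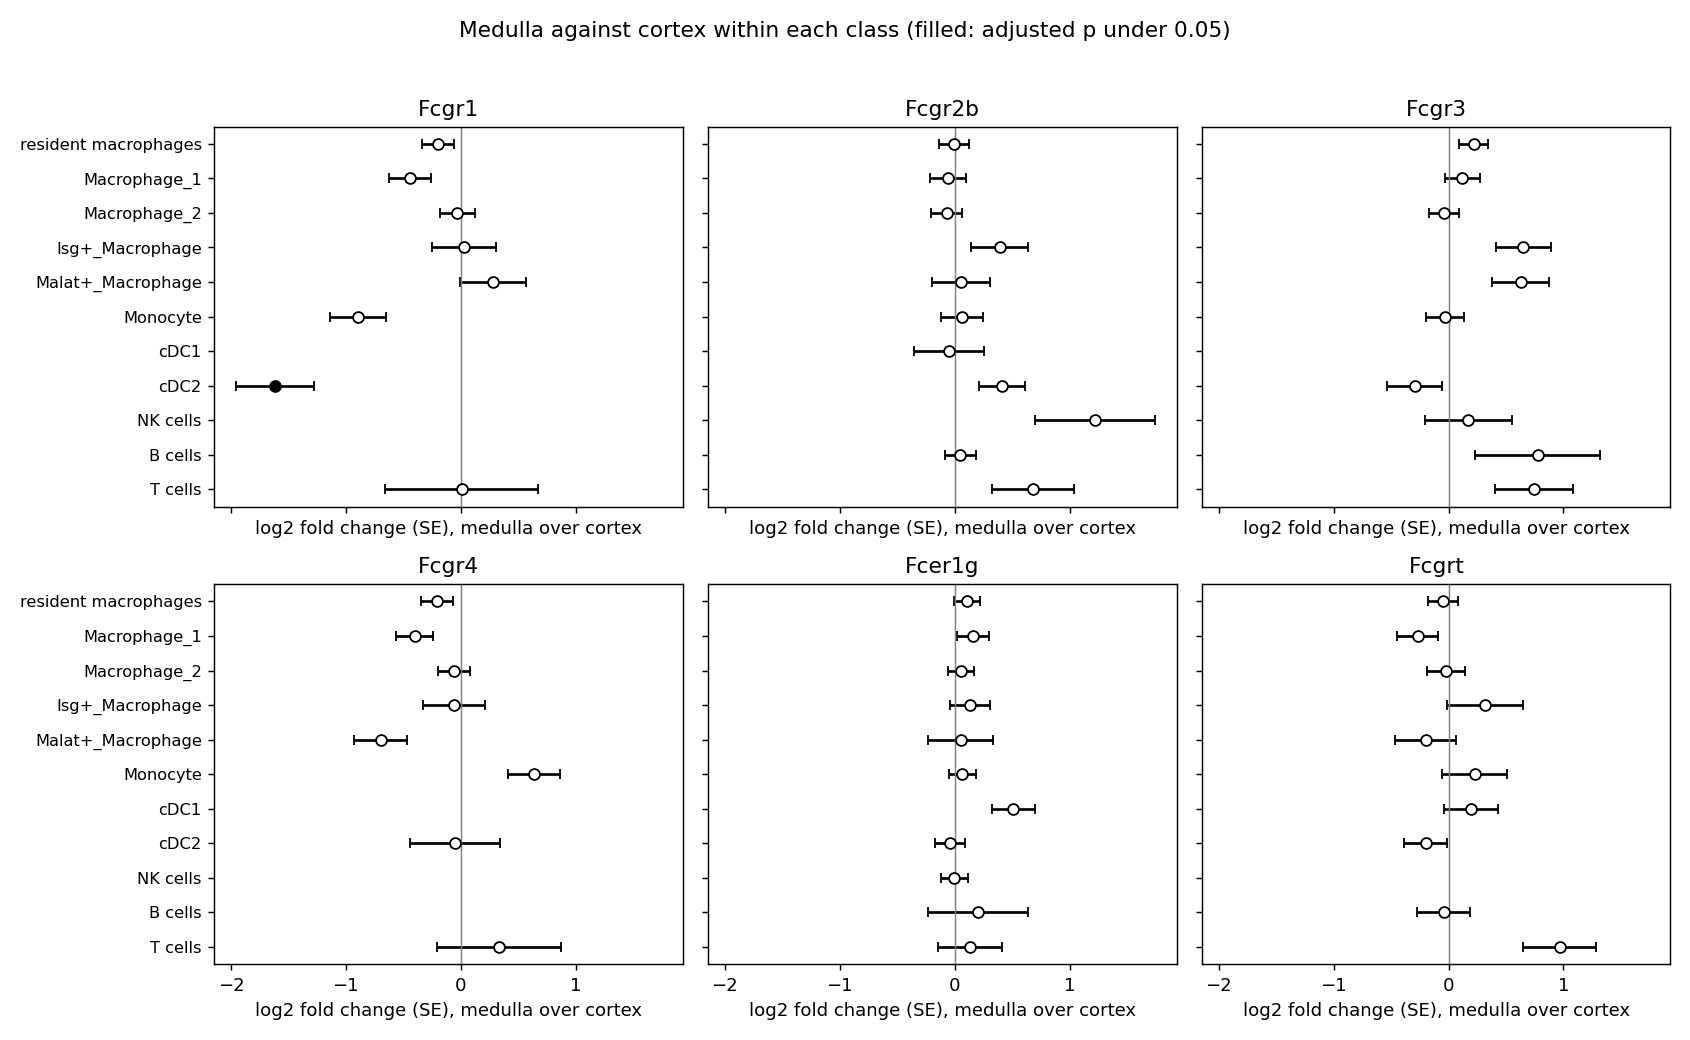
Log2 fold change, medulla over cortex, of each gene in each class of cells in which it was tested (point and SE from edgeR, filled where the adjusted p was under 0.05). The only filled point is Fcgr1 in cDC2 at -1.62, and in resident macrophages all 6 estimates lie between -0.20 and 0.22.

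In cDC2, Fcgr1 was lower in the medulla than in the cortex. The cortex libraries held 82.3 CPM in the Aachen, 65.3 CPM in the Bonn and 33.2 CPM in the Hamburg dataset. The OM libraries held 15.1, 9.77 and 17.3 CPM and the IM libraries 18.9, 20.4 and 20.7 CPM, so that the lowest cortex value lay above the highest medullary value. The log2 fold change was -1.62 ± 0.34 (edgeR adjusted p = 0.0349). It was among 15 of 4935 genes called (0.304%). Only cortex libraries reached the level that the filter on low counts asks for. Fcgr1 thus entered this test through the group in which it was high. Taken separately, neither the OM (-1.82 ± 0.43, adjusted p = 0.105, 0.101% of genes called) nor the IM (-1.41 ± 0.38, adjusted p = 0.216, 0.182% called) passed against the cortex.

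The counts behind this Fcgr1 difference were small. The cortex values rest on 6, 50 and 9 UMIs, the OM values on 2, 3 and 13 UMIs and the IM values on 2, 19 and 9 UMIs, from 22 to 160 cDC2 per library. Resident macrophage markers were present in the cDC2 of every library, with 10 to 12 of the 12 markers above 0 and a summed level of 1431 to 2510 CPM in the cortex, 677 to 2851 CPM in the OM and 1270 to 1751 CPM in the IM. The summed monocyte markers in cDC2 were lower in both medullary compartments of each dataset, as Fcgr1 was: 1248, 1268 and 2055 CPM in the cortex, 535, 896 and 1868 CPM in the OM and 785, 919 and 1693 CPM in the IM, with 5 to 9 of the 9 markers above 0. Taken singly, the monocyte gene Ly6c2 and Ccr2 were lower in both medullary compartments in Bonn only. Ly6c2 was at 54.8, 136 and 64.3 CPM in the Aachen, Bonn and Hamburg cortex. It was at 90.5, 65.1 and 147 CPM in the OM and 123, 85.9 and 35.96 CPM in the IM. In the same order Ccr2 was at 150.8, 554 and 131 CPM in the cortex. Its OM values were 173, 427 and 308 CPM and its IM values 151.4, 464 and 299.5 CPM. The part of monocyte transcripts in the Fcgr1 difference was not tested. C1qa, the complement component that marks resident macrophages, was at 314 ± 72.3 CPM in the cortex, 192 ± 205 CPM in the OM and 155 ± 56.8 CPM in the IM (n = 3 each). In the same order C1qb was at 380 ± 55.1, 268 ± 266 and 282 ± 64.3 CPM, and C1qc at 202 ± 55.6, 201 ± 235 and 127 ± 16.2 CPM. Each C1q gene was below its cortex level in the Bonn and Hamburg OM and in the IM of all 3 datasets, as Fcgr1 was. For C1qa the cortex held 384, 317 and 239 CPM in the Aachen, Bonn and Hamburg datasets, and the IM 218, 107 and 139 CPM. C1qa in the Bonn and Hamburg OM was at 0 and 168 CPM. Only in the Aachen OM was each C1q gene higher than in the cortex, unlike Fcgr1. The values were 407 against 384 CPM for C1qa, 543 against 425 CPM for C1qb and 460 against 192 CPM for C1qc. When the 91 of 668 cDC2 that held 2 or more UMIs of C1qa, C1qb and C1qc were left out, a choice made after seeing the data, the fold change of Fcgr1 was -1.23 ± 0.47 and no longer passed (edgeR adjusted p = 0.727). The call was also lost without the Aachen dataset (-1.56, adjusted p = 0.0916) or the Hamburg dataset (-2.08, adjusted p = 0.268), and without the Bonn dataset Fcgr1 fell below the filter on low counts. It was lost as well in a fit without the dataset as a block (-1.72, adjusted p = 1.0), with DESeq2 (-1.64, adjusted p = 0.258), and without the Aachen cortex, Aachen OM, Bonn cortex, Bonn OM, Bonn IM or Hamburg OM library, with estimates of -1.44 to -1.90 where Fcgr1 passed the filter.

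The other 5 genes did not pass in cDC2. Fcgr2b, the receptor most typical of these cells, had a log2 fold change of 0.41 ± 0.20 (edgeR adjusted p = 0.988), with 219, 376 and 173 CPM in the cortex, 173, 625 and 287 CPM in the OM and 85.2, 490 and 226 CPM in the IM. It was higher in the medulla in the Bonn and Hamburg datasets and lower in Aachen. Fcgrt was slightly lower in both medullary compartments of 3 of 3 datasets (-0.20 ± 0.18, adjusted p = 0.995). In cDC1, which could be fitted on 8 libraries (0.0634% of genes called), 3 members passed the filter on low counts and Fcer1g had the largest estimate, 0.51 ± 0.19 (adjusted p = 1.0).

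In monocytes, where 20 of 6029 genes were called (0.332%), no member passed. The Fcgr1 level was 62.9, 124 and 113 CPM in the cortex of the Aachen, Bonn and Hamburg datasets, 92.8, 83.1 and 53.4 CPM in the OM and 66.4, 49.6 and 69.7 CPM in the IM. It was lower in the medulla in Bonn and Hamburg and higher in Aachen, with a log2 fold change of -0.90 ± 0.24 (edgeR adjusted p = 0.0852). Fcgr4 moved the other way: 31.4, 100 and 75.4 CPM in the cortex, 255, 173 and 110 CPM in the OM and 149, 136 and 80.1 CPM in the IM. Both medullary libraries exceeded the cortex in each dataset, although the Hamburg IM lay below the Bonn cortex. The log2 fold change of Fcgr4 was 0.64 ± 0.23 (adjusted p = 0.529). The Aachen cortex value rests on 2 UMIs. Summed resident macrophage markers in monocytes were at 6054, 6863 and 3877 CPM in the Aachen, Bonn and Hamburg cortex. They were at 10119, 7070 and 4379 CPM in the OM and 7540, 6517 and 3881 CPM in the IM. In the OM they were higher than in the cortex in each dataset, as Fcgr4 was, and most of all in Aachen. In the IM they were higher in Aachen, lower in Bonn and nearly unchanged in Hamburg. The part of these macrophage transcripts in the values was not tested beyond leaving out the 78 of 714 monocytes with 2 or more C1q UMIs, after which the estimates were -0.998 (adjusted p = 0.0700) for Fcgr1 and 0.55 (adjusted p = 1.0) for Fcgr4.

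**Figure D4:**
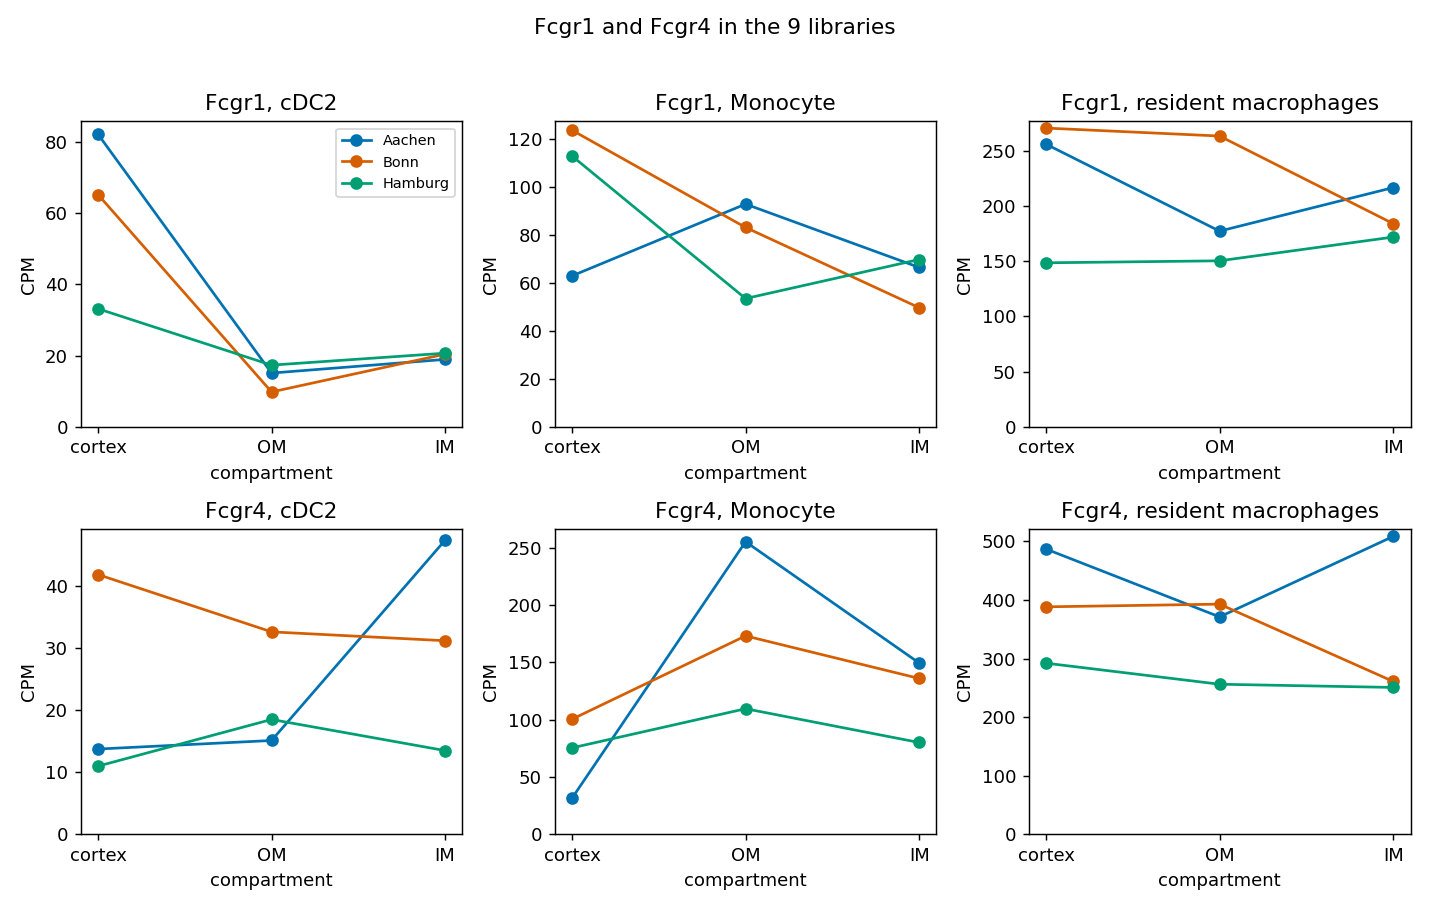
CPM of Fcgr1 and Fcgr4 in resident macrophages, monocytes and cDC2 of the 9 libraries, by compartment, with a line for each dataset and axes that start at 0. Fcgr1 falls from the cortex in cDC2 in all 3 datasets (82.3, 65.3 and 33.2 CPM in the cortex, none above 20.7 CPM in the medulla), and Fcgr4 in monocytes is lowest in the cortex of each dataset.

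Whether these differences were particular to a class was tested as an interaction, the medulla minus cortex difference in resident macrophages minus that in the other class, in a model with each library as a block. For Fcgr1 the difference between resident macrophages and cDC2 was 1.41 ± 0.34 (edgeR adjusted p = 0.0113). It was among 70 of 8566 genes called (0.817%), and the call was lost without the Aachen (1.37, adjusted p = 0.143) or the Bonn dataset (1.18, adjusted p = 1.0). For Fcgr4 the difference between resident macrophages and monocytes was -0.92 ± 0.24 (adjusted p = 0.0300), among 62 of 8562 genes called (0.724%), and this call was lost without any of the 3 datasets. For Fcgr1 the comparison with monocytes gave 0.72 ± 0.27 (adjusted p = 0.368). Against B cells, in which 1.04% of genes were called, no member passed.

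In lymphocytes no member passed between compartments. Fcgr2b in B cells was measured at 48.8, 137 and 113 CPM in the cortex, 65.6, 180 and 106 CPM in the OM and 62.1, 124 and 112 CPM in the IM. The datasets differed more than the compartments did, and the log2 fold change was 0.05 ± 0.13 (edgeR adjusted p = 1.0, 0.0898% of genes called). In NK cells (0.0299% called) Fcer1g lay between 2428 and 3403 CPM in all libraries, with a log2 fold change of -0.0021 ± 0.12, and Fcgr2b had 1.22 ± 0.52 (adjusted p = 1.0). In T cells (0.0335% called) all 6 genes passed the filter on low counts, although the shares of cells with the 4 Fcγ receptors were those read as background above. Fcer1g was found in 5.24% ± 3.42 of T cells at 500 UMIs, and its level was 163 to 437 CPM in the Aachen libraries against 29.4 to 114 CPM in the others.

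The genes that act with the Fc receptors were followed in lists, for resident macrophages, medulla against cortex, where 0.645% of all genes were higher and 0.599% lower. Of 18 ITAM-proximal signalling genes tested, 0 were higher and 1 lower, with a median log2 fold change of -0.19 against 0.0058 over all genes. The gene was Fgr, a Src family kinase, at 42.2, 64.4 and 50.9 CPM in the cortex, 9.47, 24.1 and 33.7 CPM in the OM and 38.3, 21.9 and 34.3 CPM in the IM of the Aachen, Bonn and Hamburg datasets (-1.13 ± 0.24, edgeR adjusted p = 0.0361). Of the same step, the kinases Lyn (-0.42 ± 0.18, adjusted p = 0.425) and Syk (-0.19 ± 0.13, adjusted p = 0.704) did not pass. Of 14 genes of inhibitory signalling, 0 were higher and 1 lower (median -0.10), Cd300a, an ITIM-bearing receptor of myeloid cells. It was at 117, 208 and 164 CPM in the cortex, 38.5, 105 and 109 CPM in the OM and 109, 81.5 and 103 CPM in the IM (-0.90 ± 0.20, adjusted p = 0.0382), and as for Fgr the highest medullary value lay below the lowest cortex value. SHIP1 (Inpp5d), the phosphatase that acts behind FcγRIIB, had 0.05 ± 0.12 (adjusted p = 0.964).

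Of the 6 tested genes for ITAM adaptors and the other receptors that use them, 1 was higher and 1 lower (median -0.29). Clec4n, which encodes Dectin-2, a lectin that signals through FcRγ, was at 26.4, 44.8 and 37.2 CPM in the cortex, 2.23, 8.78 and 22.8 CPM in the OM and 22.1, 9.35 and 7.96 CPM in the IM. Its medullary values all lay below its cortex values (-1.75 ± 0.36, edgeR adjusted p = 0.0324). Trem2, which signals through the adaptor Tyrobp, was the gene that was higher, at 17.7 to 29.0 CPM in the cortex and 44.3 to 129 CPM in the medulla (1.498 ± 0.20, adjusted p = 0.00477). The adaptors themselves, Fcer1g (0.11) and Tyrobp (0.10 ± 0.12, adjusted p = 0.876), had estimates near 0. Markers of other cells moved with these calls in part. The summed monocyte markers of the resident macrophages were at 194, 667 and 755 CPM in the Aachen, Bonn and Hamburg cortex, 64.7, 275 and 539 CPM in the OM and 237, 166 and 778 CPM in the IM, lower in the OM of each dataset and lower in the IM in Bonn only. Macrophage_3 was more frequent in the medulla, as given above. The part of either in the values of Fgr, Cd300a, Clec4n and Trem2 was not tested.

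None of 5 tested genes for other Fc-binding proteins passed (median 0.02), B2m, the partner of FcRn, among them (0.02 ± 0.10, adjusted p = 1.0), and none of 16 genes of the phagocytosis machinery passed (median -0.09). In monocytes and cDC2 no gene of these lists passed apart from Fcgr1 in cDC2.

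Across the 23 clusters, the genes whose log2(CPM + 10) profile was most like that of each member were named by Pearson's r among 6886 genes, as a description with clusters as points that share libraries and depth. Fcgr1 was most like Adgre1 (0.964), Ms4a7 (0.961) and C1qa (0.959), and Fcgr4 most like C1qa (0.968), C1qb (0.966) and Adgre1 (0.966), all genes of the resident macrophages. Fcgr3 was most like Csf1r (0.973), Cx3cr1 (0.967) and Cd14 (0.965), which monocytes also express. The nearest genes to Fcgr2b were H2-Eb1 (0.955) and H2-Ab1 (0.953), and those to Fcgrt were H2-DMb1 (0.952), Tns3 (0.952) and Cyp27a1 (0.943), so that genes of MHC class II presentation stood first for both. Fcer1g was most like the other adaptor gene, Tyrobp (0.938), followed by Sh2d1b1 (0.925) and Tnfsf12 (0.883). Among the members, Fcgr3 and Fcgr4 were the most alike (r = 0.962) and Fcer1g and Fcgrt the least (r = 0.606).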

How the data were processed

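Immune cells from cortex, OM and IM of mouse kidneys were profiled on 10x Genomics droplets at 3 sites. The deposited file holds expected counts (UMIs per cell and gene) for all cells of the study, with compartment, facility and cluster per cell. According to the submitters' processing notes the authors used Cell Ranger, Seurat and the mm10 genome, and removed cells of low quality. The Aachen and Bonn counts were whole, and 0.118% of the non-zero Hamburg values were, so sums were rounded. The facility comes from the file, not from the sample labels, and the kit version cannot be told apart from the dataset. With the dataset in the model, differences in level between datasets do not enter the p-values. These rest on the spread between libraries that remains, that is on how alike the compartment differences of the datasets were.

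UMIs were summed per class and library (at least 10 cells) and tested with edgeR 4.0.16 (R 4.3.3): filterByExpr, TMM, glmQLFit with the dataset as a block, Benjamini-Hochberg adjustment over all genes tested and a threshold of 0.05. The block rests on the datasets' own deviations from the mean of each compartment. With these means taken out, libraries of the same dataset correlated at 0.827 to 0.921 (9 pairs, 8228 genes) and those of different datasets at -0.875 to 0.493 (27 pairs). Taking out the means pushes correlations between datasets towards negative values, so the contrast of these ranges is partly fixed in advance. Neutrophils and Macrophage_3 had too few cells in some libraries to be fitted. CPM used all UMIs of a cluster, without TMM. Doublets were not removed. The edgeR fit of medulla against cortex (for resident macrophages and monocytes) and the permutation test were tried on simulated data. Alternatives were DESeq2 1.42.0, no low-count filter, no TMM factor, no block, thinned cells, cells with lymphocyte markers left out (810 of 8368 myeloid cells) and each dataset left out.

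All 6 members are named in every comparison, with the called genes of the pathway lists and the 3 genes most like each member in profile (for Fcgr2b, the third is not reported here). The rule lists the members by name and uses no measured value, but it and the gene lists were chosen with earlier results of these data known.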

Additional observations from a re-analysis of the deposited data

Results flagged for a closer look

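The medulla minus cortex difference of Fcgr1 differed between resident macrophages and cDC2 by 1.41 on the log2 scale (edgeR interaction, adjusted p = 0.0113), and that of Fcgr4 differed between resident macrophages and monocytes by -0.92 (adjusted p = 0.0300). Both were noted because the effects of the same contrast differed between classes of cells in a test of the difference itself. Neither call was stable: that of Fcgr1 was lost without the Aachen or the Bonn dataset, and that of Fcgr4 without any of the datasets. The interactions were not refitted with DESeq2, without cells holding C1q UMIs or with single libraries left out. The Fcgr1 estimates behind the first were -0.19 in resident macrophages and -1.62 in cDC2, and the Fcgr4 estimates behind the second were -0.20 in resident macrophages and 0.64 in monocytes.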

How the results depend on the processing

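In resident macrophages no member passed under any alternative run. The number of members called, medulla against cortex, in cDC2 (1, Fcgr1) became 0 with DESeq2 (-1.64, adjusted p = 0.258), without the replicate block (-1.72, adjusted p = 1.0), with thinned cells (Fcgr1 below the filter), without cells holding lymphocyte markers (-1.38, adjusted p = 0.307) and without cells holding C1q UMIs (adjusted p = 0.727), and ran from 0 to 1 when datasets or single libraries were left out. It was kept without the Aachen IM, Hamburg cortex or Hamburg IM library. The cause of these losses was not tested. In OM against cortex, cDC2 went from 0 to 1 without a low-count filter (Fcgr1, -1.81, adjusted p = 0.0127) and from 0 to 1 with libraries left out. In monocytes the count went from 0 to 1 without cells holding lymphocyte markers (Fcgr1, -1.01, adjusted p = 0.0386) and to 1 without the Aachen cortex (adjusted p = 0.0333) or Bonn OM library (adjusted p = 0.0498). Without the Bonn OM library NK cells went from 0 to 1 (Fcgr2b, 1.79 in medulla and 2.36 in OM against cortex), and without the Bonn cortex library T cells in OM against cortex went from 0 to 1 (Fcer1g, 0.86). Leaving out single libraries, the C1q filter and rounding Hamburg values up were chosen after seeing the data.

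With a dataset left out, the interaction call with monocytes (1, Fcgr4) became 0 each time, the value running from -1.14 to -0.76, and that with cDC2 (1, Fcgr1) ran from 0 to 1, the value from 1.18 to 1.78. In resident macrophages the Fcgr2b estimate changed sign without the replicate block (0.000906), with thinned cells (0.0254) and with datasets or libraries left out (-0.15 to 0.17), as did Fcer1g (-0.0214 without the Aachen dataset, up to 0.203) and Fcgrt (0.0615 thinned, -0.172 to 0.0588 with datasets or libraries left out). The difference in the activating to inhibitory ratio ran from -0.13 to 0.15 with a dataset left out. Fcgrt in Macrophage_3 was 184 CPM with thinned cells. The replicate block changed no other call on a member. In 38 of 44 combinations of class and comparison the number of members called was the same under all alternatives.

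Depth limits the rarer genes most: Fcgr1 outside macrophages and monocytes rests on few UMIs per library. Macrophage_3 and neutrophils were too few in several libraries for a test between compartments.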
